A study of Oryza sativa with 12 samples.

Results

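The loss of zinc (Zn) supply moves the transcripts of a rice crown, and the question here was for which genes that movement differed between Zn-inefficient and Zn-efficient rice. The quantity described is therefore a difference of 2 responses: for each gene, the log2 fold change of −Zn over +Zn crowns in the inefficient class less the same log2 fold change in the efficient class. A positive difference means that the transcript responded more in the upward direction, or less in the downward one, in the inefficient class. It was computed from the authors' deposited tables for every gene with an adjusted p in both within-class comparisons, which gave 24127 genes of the 33277 listed. A gene was called where the difference had an adjusted p under 0.05 (ratio of the difference to its standard error, two-sided normal p, Benjamini-Hochberg over the 24127 genes).

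Zn deficiency is among the most common mineral disorders of flooded rice soils, and bicarbonate in the root medium, which such soils often hold, adds to it. A Zn-efficient genotype is one that keeps growing and forming new roots where plant-available Zn is low, and the crown, the compressed stem base that bears the tillers and the crown roots, is the organ in which that growth starts. Plants short of Zn are known to raise ZIP transporters, which carry Zn into the cytosol, and the enzymes that make nicotianamine and mugineic acids, which bind Zn and iron for transport.

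The data came from 12 bulk RNA libraries of crowns in 4 groups of 3. The inefficient class was IR64, IR74 and Kinandang Patong, and the efficient class was IR55179-3B-11-3, Nipponbare and RIL46. Each genotype gave 1 library without added Zn (0 µM ZnSO4) and 1 with Zn (1.5 µM ZnSO4), after 8 days of treatment. Both supplies were given in Yoshida nutrient solution at full strength that held 0.1% agar and, as bicarbonate, KHCO3 at 1 mM, so agar and bicarbonate were common to all plants. The replicates of a class are thus different genotypes, and every class difference is one between these 3 and these 3 genotypes. Nipponbare is also the source of the reference genome.

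The deposited tables hold 1 value per gene and comparison. Values of single libraries and their read depths were not analysed here, so no value per library and no within-genotype difference can be given. In their place each gene is given by 4 derived group means, in normalized counts, which are the means the groups must have for the deposited overall mean and fold changes to hold if the 4 groups weigh alike. In whole crowns, fewer cells of a type and less RNA per cell cannot be told apart. The lists of marker genes for tissue showed no called difference: 0 of 17 tested green leaf genes (median difference −0.19), 0 of 3 root genes (−0.91) and 0 of 10 shoot meristem genes (−0.06), with 0, 1 and 2 at an unadjusted p under 0.05. Over all tested genes 2.36% were called and 11.6% had an unadjusted p under 0.05, so 0 calls in lists this short is near that share. The 3 root genes, the silicon transporters Lsi1 and Lsi2 and the root protein RCc3, all had negative differences, and their part in the results below was not tested.

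The classes differed in their Zn response at 570 genes, 2.36% of those tested. The response was higher in the inefficient class at 381 genes (1.58% of tested genes) and lower at 189 (0.783%). Nearly all had a mean normalized count of at least 20, with 373 higher and 187 lower among the 19882 such genes (1.88% and 0.941%). The median difference over all tested genes was 0.02 on the log2 scale, and the responses of the inefficient class were more spread out. Over the 19882 genes, the robust standard deviation of the response was 0.689 in the inefficient and 0.434 in the efficient class, a ratio of 1.59. When the efficient responses were multiplied by that ratio, 36 higher and 20 lower genes were called, of which 44 were among the 570. Of the 124 called genes named in the text, 31 were still called under that scaling, among them OS01G0734800, OS03G0757600, OS01G0173900, WRKY45 and DREPP described below, and the other 93 were not. At the median standard error of 0.401, a difference had to reach 1.30 on the log2 scale to be called, and genes below that size may differ without having been called.

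**Figure D1:**
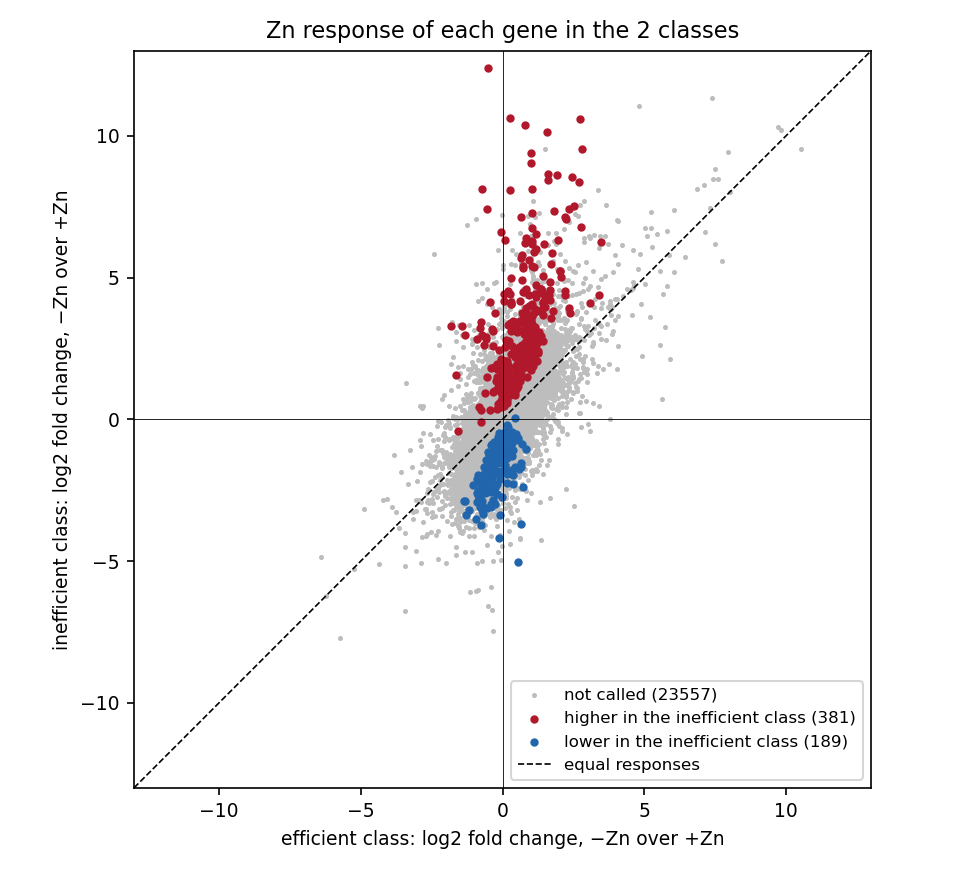
Log2 fold change of −Zn over +Zn crowns in the inefficient class (vertical axis) against the efficient class (horizontal axis), 1 point per tested gene, with the 381 higher genes in red, the 189 lower genes in blue and the line of equal responses dashed. The red genes stretch upward to 12.38 in the inefficient class while none passes 3.47 in the efficient class, and 188 of the 189 blue genes lie below 0 in the inefficient class. The choice of genes by their difference favours this shape.

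Choosing genes as higher itself favours a high inefficient and a low efficient response, and choosing them as lower favours the reverse. The sizes, calls and forms below are thus a description of the chosen genes. Among the higher genes the response was larger in size in the inefficient class at all but 6. Their median difference was 1.78 (quartiles 1.15 and 2.94). In the authors' deposited tables their median response was 2.47 in the inefficient and 0.63 in the efficient class, 256 of the 381 carried a called rise in the inefficient class (2.42% of its tested genes did) and 5 carried one in the efficient class (0.246%). Of the 381, 219 had the same direction in both classes with the larger size in the inefficient class, 142 had an efficient response within 0.5 log2 units of 0, and 16 had opposite signs beyond that band. These shares depend on the width of the band: at 1 log2 unit, 99 had the first form and 277 an efficient response inside the band. The lower genes had a median difference of −1.42 (quartiles −1.91 and −0.99). Of the 189, 120 had an efficient response within 0.5 of 0 (184 within 1), 59 had a negative response in both classes and the larger one in the inefficient class, and 10 had opposite signs beyond that band. The authors' deposited tables called a fall for 75 of the 189 in the inefficient class (1.08% of all) and for 0 in the efficient class (0.0345% of all).

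Since the difference equals the gap between classes without Zn less the gap with Zn, each called gene can also be described by its 2 gaps. Choosing genes for a large difference itself favours a gap without Zn of the same sign and a gap with Zn of the other sign, so the signs below are a description of the chosen genes. The gap without Zn had the sign of the difference at all 381 higher and all 189 lower genes. The gap with Zn had the other sign at 341 of the 381 and at 179 of the 189, but it was the smaller of the 2 gaps at 353 higher and 180 lower genes. In the authors' deposited tables the median gap of the higher genes was 1.39 without Zn and −0.35 with Zn, and that of the lower genes was −1.01 without Zn and 0.35 with Zn. Their test of a change beyond 2-fold called the class gap without Zn at 74 of the higher and 2 of the lower genes, and the gap with Zn at 0 of either, by the same tables. The calls in the 2 class comparisons as a whole were few, with 89 higher and 8 lower of 32514 genes without Zn (0.274% and 0.0246%) and 0 higher and 3 lower with Zn (0.00923% lower).

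**Figure D2:**
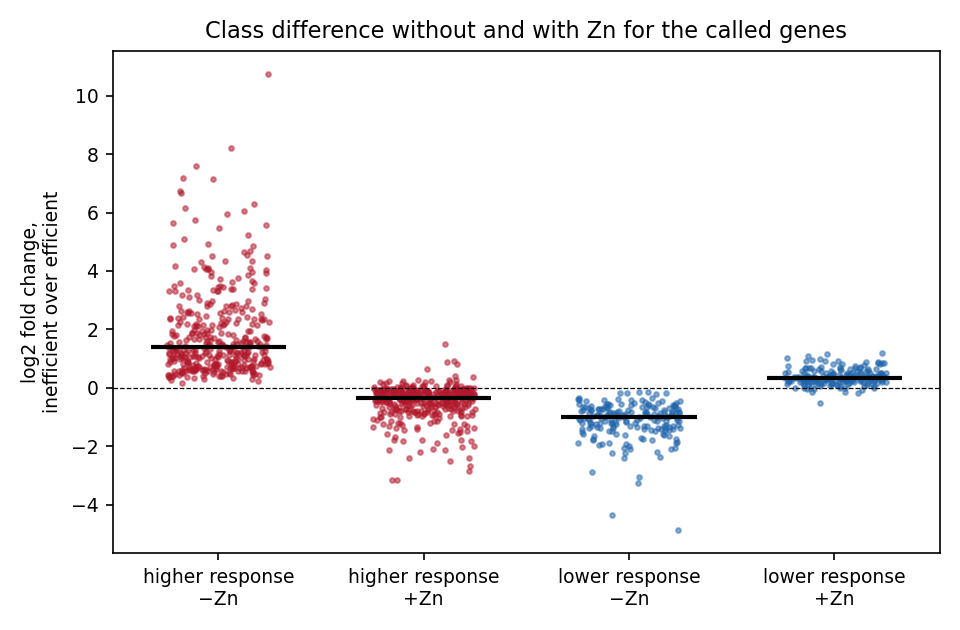
Log2 fold change of inefficient over efficient crowns for each called gene, without Zn (−Zn) and with Zn (+Zn), for the 381 genes with a higher and the 189 with a lower response in the inefficient class; black bars are medians. The points without Zn lie all on 1 side of 0, and the points with Zn lie closer to 0 and mostly on the other side, signs that the choice of genes by their difference favours.

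The genes of Zn uptake gave no called difference. Of the 13 tested ZIP and other annotated Zn transporter genes 0 were called and 0 had an unadjusted p under 0.05. Over all tested genes the shares were 2.36% and 11.6%, so 0 calls in a list this short is near the share of all genes. The median difference of the 13 was 0.10, which turned to −0.39 when the efficient responses were scaled. ZIP9 stood at 7896 in −Zn inefficient, 79.96 in +Zn inefficient, 6927 in −Zn efficient and 124 in +Zn efficient crowns, the steepest of the ZIP genes followed here, and its difference of 0.83 had a 95% interval of −0.23 to 1.88. ZIP4 stood at 3011 in −Zn inefficient, 114 in +Zn inefficient, 2067 in −Zn efficient and 84.0 in +Zn efficient crowns, with a difference of 0.10 and an interval of −0.66 to 0.86. With the efficient responses scaled it turned to −2.61 and was called lower (adjusted p = 0.000678). ZIP5 and ZIP8 had differences of 0.10 (interval −1.01 to 1.198) and 0.37 (interval −0.68 to 1.41). For ZIP4 the interval excluded a difference of 1 log2 unit in either direction, and for the other 3 it did not.

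Of the genes that handle Zn or other metals inside the plant, several had a higher response in the inefficient class. Among the 66 tested heavy metal domain and metallothionein genes, 8 were higher and 2 lower (median difference 0.13, or −0.09 with the efficient responses scaled). The shares over all tested genes, 1.58% higher and 0.783% lower, belong beside this count and those of the lists below. No list was tested against them. A metallothionein-like gene (OS12G0570700), whose product belongs to the small cysteine-rich proteins that bind Zn and copper, reached 9430.0 in −Zn inefficient crowns, against 84.7 in +Zn inefficient crowns, and 621 in −Zn efficient crowns, against 92.2 in +Zn efficient crowns. The classes were at similar levels with Zn, and the difference was 4.05 ± 0.77 log2 units (adjusted p = 7.27e-05). This gene was not called with the efficient responses scaled. HMA1 (OS06G0690700), a P-type ATPase that moves Zn and other metals across the chloroplast envelope, stood at 5257 in −Zn inefficient, 303 in +Zn inefficient, 2728 in −Zn efficient and 323 in +Zn efficient crowns. It carried a called rise in both classes in the authors' deposited tables, and its difference was 1.04 ± 0.24 (adjusted p = 0.00294), although with the efficient responses scaled the difference turned to −0.77 and was not called. The heavy metal domain genes OS02G0584700 and OS08G0205400 were higher by 3.05 ± 0.70 and 0.67 ± 0.16, and OS01G0719600, of the same domain family, was lower, with a difference of −1.13 ± 0.24. None of these heavy metal domain genes was called with the efficient responses scaled.

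Of the 11 tested nicotianamine and mugineic acid genes, 2 were higher and 0 lower (median difference −0.23, or −0.01 with the efficient responses scaled). Both called members act after nicotianamine on the way to deoxymugineic acid. NAAT1 (OS02G0306401), which turns nicotianamine into its keto acid, stood at 8644 in −Zn inefficient, 114 in +Zn inefficient, 3436 in −Zn efficient and 310.4 in +Zn efficient crowns, a difference of 2.78 ± 0.60 (adjusted p = 0.000857). DMAS1 (OS03G0237100), the next enzyme, stood at 179 in −Zn inefficient, 29.8 in +Zn inefficient, 85.1 in −Zn efficient and 68.1 in +Zn efficient crowns, a difference of 2.27 ± 0.61 (adjusted p = 0.0151). For both, the inefficient crowns were below the efficient ones with Zn and above them without Zn. The gaps with Zn (−1.45 and −1.19 log2 units) were not called by the authors' test of a change beyond 2-fold. Choosing genes by the difference favours such gaps. With the efficient responses scaled, neither NAAT1 nor DMAS1 was called. NAS3, a nicotianamine synthase, was not called, with an interval of −0.79 to 0.33 around −0.23, but was called lower with the efficient responses scaled (−1.55, adjusted p = 0.0220).

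Of the 34 tested phosphate genes 2 were higher (5.88%, against 1.58% of all tested genes) and 0 lower (median difference 0.09). At an unadjusted p under 0.05 the share was 11.8%, near the 11.6% of all tested genes, so the list as a whole did not stand out. PT1 (OS03G0150600), a plasma membrane phosphate transporter, stood at 2646 in −Zn inefficient, 429 in +Zn inefficient, 1297 in −Zn efficient and 568 in +Zn efficient crowns. Its difference was 1.43 ± 0.26 (adjusted p = 1.05e-05). A gene annotated as a phosphate starvation regulator (OS12G0105600) was higher by 1.95 ± 0.46. Neither this gene nor PT1 was called with the efficient responses scaled.

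Enzymes and pumps that conjugate or export small molecules were among the genes with the largest ratios of difference to standard error. Of the 88 tested UDP-glycosyltransferase genes, whose products attach sugars to hormones and secondary metabolites, 4 were higher and 0 lower (median 0.08, or 0.00 scaled). OS01G0734800 of this family had the largest ratio of difference to standard error among all 24127 genes. It stood at 1281 in −Zn inefficient, 71.3 in +Zn inefficient, 123 in −Zn efficient and 80.1 in +Zn efficient crowns, so the −Zn inefficient crowns stood apart from the other 3 groups (difference 3.55 ± 0.30, adjusted p = 1.76e-28). OS03G0757600 stood at 699.6 in −Zn inefficient, 23.4 in +Zn inefficient, 38.9 in −Zn efficient and 24.3 in +Zn efficient crowns, with the classes at similar levels with Zn (difference 4.22 ± 0.51). The other members of this family, OS04G0206500 and OS05G0527000, were at 0.182 and 1.66 normalized counts in +Zn inefficient crowns, so their differences of 9.58 ± 1.89 and 4.67 ± 1.117 rest on a level near 0.

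Transporters of the ATP-binding cassette and MATE families, which move conjugates and other compounds into the vacuole or out of the cell, gave several of the clearest calls. The MRP-like ABC transporter OS01G0173900 stood at 5574 in −Zn inefficient, 244 in +Zn inefficient, 439.8 in −Zn efficient and 386 in +Zn efficient crowns, the highest level among the exporters named here, and differed by 4.33 ± 0.61 (adjusted p = 4.89e-09). A second MRP-like gene, OS04G0209200, stood at 1301 in −Zn inefficient, 131 in +Zn inefficient, 215 in −Zn efficient and 179 in +Zn efficient crowns (difference 3.05 ± 0.44), and its neighbour OS04G0209300, a gene picked after its values were seen, was higher by 1.44 ± 0.36. The MDR-like ABC transporter OS01G0695800 and the MATE efflux gene OS04G0373400 were higher by 5.44 ± 0.80 and 2.83 ± 0.42. For OS01G0173900, OS04G0209200, OS01G0695800 and OS04G0373400 the authors' deposited tables gave responses of 3.32 to 6.22 in the inefficient class, each called, and of 0.19 to 0.78 in the efficient class, none called.

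Of the 148 tested cytochrome P450 genes 8 were higher (5.41%, against 1.58% of all tested genes) and 0 lower (median 0.22, or 0.01 with the efficient responses scaled). At an unadjusted p under 0.05 the P450 share was 12.8%, near the 11.6% of all tested genes. Of the 40 glutathione S-transferase genes 3 were higher and 1 lower (median 0.31). The elicitor-inducible P450 OS09G0441400 was abundant, at 7516 in −Zn inefficient, 893 in +Zn inefficient, 2315 in −Zn efficient and 1129.6 in +Zn efficient crowns (difference 2.04 ± 0.43). OS08G0508000 stood at 191 in −Zn inefficient crowns and between 1.98 and 5.83 in the other 3 groups (difference 6.66 ± 1.03), and the P450 71A1-like OS12G0268000 was higher by 2.54 ± 0.51. The largest difference of all called genes, 12.89 ± 2.53 at the P450 OS01G0627800, came from 3426 normalized counts in −Zn inefficient crowns against 0.645 in +Zn inefficient, 1.98 in −Zn efficient and 2.83 in +Zn efficient crowns. Its standard error is among the widest, and without library values it cannot be said how many of the 3 inefficient genotypes carried it. The glutathione S-transferases OS10G0529500, OS01G0949750 and OS04G0435500 were higher by 2.72, 2.16 and 1.05, and OS01G0371500 was lower, with a difference of −2.34 on the log2 scale.

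**Figure D3:**
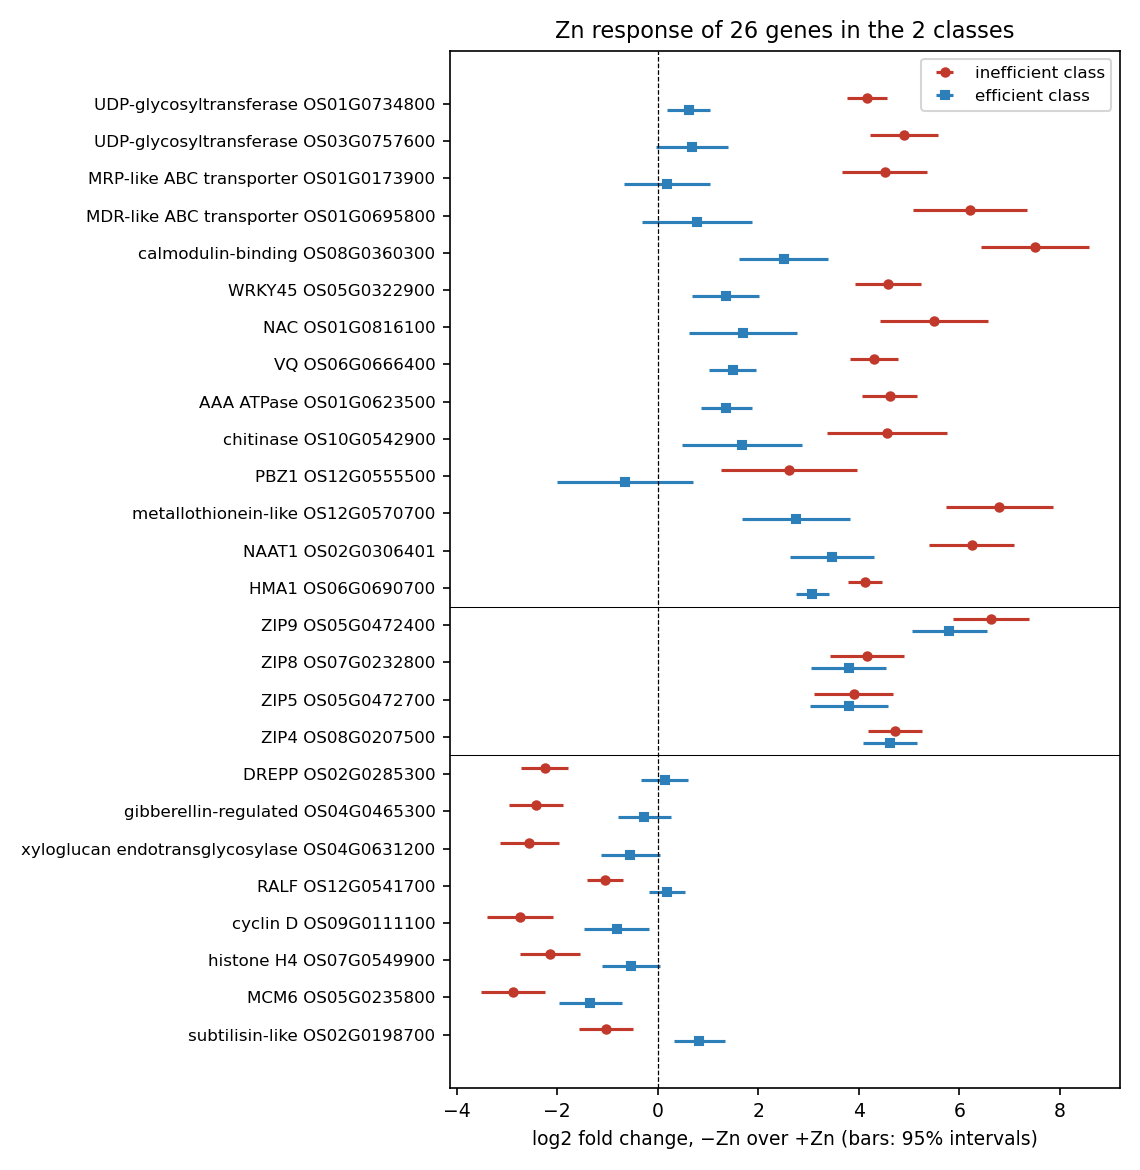
Log2 fold change of −Zn over +Zn crowns with 95% intervals for 26 genes, inefficient class as circles and efficient class as squares, with the higher genes at the top, 4 ZIP genes that were not called in the middle and the lower genes at the bottom. The intervals of the classes overlap at the ZIP genes and lie apart at the UDP-glycosyltransferases, the ABC transporters and DREPP.

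Among the listed families of transcription regulators, WRKY genes had the largest number of called members. Of the 71 tested WRKY genes, DNA-binding factors of the plant immune response, 12 were higher and 0 lower, with a median difference of 0.46 against 0.02 over all genes (0.35 with the efficient responses scaled). WRKY45 (OS05G0322900), the rice factor of benzothiadiazole-induced resistance, stood at 3876 in −Zn inefficient, 161 in +Zn inefficient, 379.9 in −Zn efficient and 149 in +Zn efficient crowns. Its difference was 3.24 ± 0.48 (adjusted p = 1.71e-08). OS03G0335200, OS01G0730700 and OS01G0246700 were higher by 5.15 ± 1.02, 2.47 ± 0.45 and 1.67 ± 0.27. The adjacent genes WRKY76 (OS09G0417600) and WRKY62 (OS09G0417800), known in rice as repressors of resistance and named here after their values were seen, were higher by 4.86 ± 1.17 and 4.73 ± 1.09. All 12 had a positive response in both classes in the authors' deposited tables.

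Of the 51 tested NAC factors 6 were higher and 0 lower (median 0.26, or 0.05 scaled). OS01G0816100 stood at 979 in −Zn inefficient, 21.7 in +Zn inefficient, 81.3 in −Zn efficient and 24.998 in +Zn efficient crowns (difference 3.79 ± 0.77), and OS11G0154500, OS01G0261200 and OS01G0884300 were higher by 3.09, 1.60 and 1.53. The 24 VQ genes, whose short proteins bind WRKY factors, gave 2 higher and 0 lower (median 0.35, or 0.04 scaled), with OS06G0666400 at 1451 in −Zn inefficient, 73.5 in +Zn inefficient, 313 in −Zn efficient and 112 in +Zn efficient crowns (difference 2.81 ± 0.34) and OS02G0173200 higher by 1.21. The 74 AP2/ERF factors gave 1 higher and 0 lower, the ERF-type OS01G0693400 (1.43 ± 0.41), a share below that of all genes, and their median was 0.05 (−0.04 scaled). The 36 jasmonate and JAZ genes gave 2 higher (5.56%, against 1.58% of all tested genes), the TIFY-domain genes OS07G0615200 (0.72) and OS10G0392400 (1.37). The WRKY, NAC, VQ, AP2/ERF and JAZ lists were thus unequal in their share of called members. It was highest in WRKY, NAC and VQ, though no list was tested against another. With the efficient responses scaled, WRKY45 and the VQ gene OS06G0666400 were still called. The other called members of these lists were not.

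Genes of calcium binding and of receptors, which act early in stress signalling, were called as well. The calmodulin-binding gene OS08G0360300 stood at 664 in −Zn inefficient, 3.64 in +Zn inefficient, 49.6 in −Zn efficient and 8.72 in +Zn efficient crowns, with a difference of 5.001 ± 0.71 (adjusted p = 5.1e-09). Of the 103 tested receptor-like kinases 6 were higher and 2 lower (5.83% and 1.94%, against 1.58% and 0.783% of all tested genes). Their median was 0.06, or −0.09 scaled. The wall-associated kinase WAK80 (OS09G0471800) stood at 399 in −Zn inefficient, 31.0 in +Zn inefficient, 88.8 in −Zn efficient and 45.1 in +Zn efficient crowns (difference 2.71 ± 0.43). The lectin-like receptor kinases OS04G0531400 and OS07G0129900 and the kinase OS11G0607200 were higher by 1.41, 4.35 and 1.75. Of 207 tested NB-ARC genes, the intracellular immune receptors, 2 were higher and 0 lower, a share below that of all genes: OS11G0266500 (1.67) and OS05G0414200 (0.83).

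Defence products were called too, some of them in another form. Of the 71 tested pathogenesis-related, chitinase and thaumatin genes 5 were higher and 0 lower, with a median difference of 0.46 that shrank to 0.00 with the efficient responses scaled. The chitinase OS10G0542900 stood at 6341 in −Zn inefficient, 268 in +Zn inefficient, 978 in −Zn efficient and 307 in +Zn efficient crowns (difference 2.89 ± 0.86), and the chitinase OS10G0416500 was higher by 1.72 ± 0.48. PBZ1 (OS12G0555500), a PR10 protein induced by probenazole, stood at 2244 in −Zn inefficient, 366 in +Zn inefficient, 503 in −Zn efficient and 787 in +Zn efficient crowns, so without Zn it was above its +Zn level in the inefficient and below it in the efficient class. The PBZ1-like OS12G0555200 had the same form, at 1001 in −Zn inefficient, 134 in +Zn inefficient, 223 in −Zn efficient and 331 in +Zn efficient crowns (differences 3.26 ± 0.98 and 3.47 ± 0.86). Ent-kaurene oxidase OS06G0569500 and the ent-kaurene synthase-like OS02G0570400, enzymes of the diterpenoid branch that yields rice phytoalexins, shared it too, at 275 in −Zn inefficient, 25.3 in +Zn inefficient, 52.4 in −Zn efficient and 88.2 in +Zn efficient crowns for the first (differences 4.19 ± 1.07 and 3.70 ± 1.11). For these 4 genes the efficient response was within 1 standard error of 0 in the authors' deposited table, so a fall in the efficient class cannot be claimed. Those 2 were the called members of the 14 tested genes of the terpene synthase list, and the median difference was 1.71. The list was matched by words such as kaurene, so it also holds other enzymes, the ent-kaurene oxidase among them.

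Other defence enzymes did not have that form. An AGD2-like aminotransferase gene (OS03G0195100) stood at 291 in −Zn inefficient, 4.91 in +Zn inefficient, 26.5 in −Zn efficient and 12.2 in +Zn efficient crowns (difference 4.77 ± 0.72). A peroxidase similar to peroxidase 12 (OS01G0962700) was higher by 1.78 ± 0.47. Of the 67 tested peroxidases 1 was higher and 0 lower, a share below that of all genes. Of the 67, 47 had a negative difference, against 11711 of all 24127 tested genes, and the median was −0.68.

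Among 35 tested AAA-type ATPases 5 were higher and 0 lower (median 0.04). OS01G0623500 stood at 551 in −Zn inefficient, 22.5 in +Zn inefficient, 119.8 in −Zn efficient and 46.4 in +Zn efficient crowns (difference 3.24 ± 0.38, adjusted p = 7.72e-14). OS07G0192000, OS03G0802500 and OS03G0584400 were higher by 2.49, 3.10 and 2.32. Beside these lists, an alpha/beta hydrolase (OS03G0790500) stood at 1184 in −Zn inefficient, 7.603 in +Zn inefficient, 26.8 in −Zn efficient and 13.2 in +Zn efficient crowns, a difference of 6.25 ± 0.61. A gene of the plant viral-response family (OS09G0444900) stood at 642 in −Zn inefficient, 7.92 in +Zn inefficient, 21.8 in −Zn efficient and 20.3 in +Zn efficient crowns, and hydroxyisourate hydrolase (OS05G0366600), an enzyme of urate breakdown, at 418 in −Zn inefficient, 19.4 in +Zn inefficient, 34.3 in −Zn efficient and 32.9 in +Zn efficient crowns. For both, the 2 efficient groups were at nearly the same level (differences 6.24 ± 0.66 and 4.37 ± 0.51). A peptidase of the M16 family (OS01G0778800) was higher by 1.95 ± 0.28. The SUI1-domain gene OS04G0627900, whose family includes a translation initiation factor, was higher by 8.57 ± 1.74 from 0.659 normalized counts in +Zn inefficient crowns, again a level near 0.

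**Figure D4:**
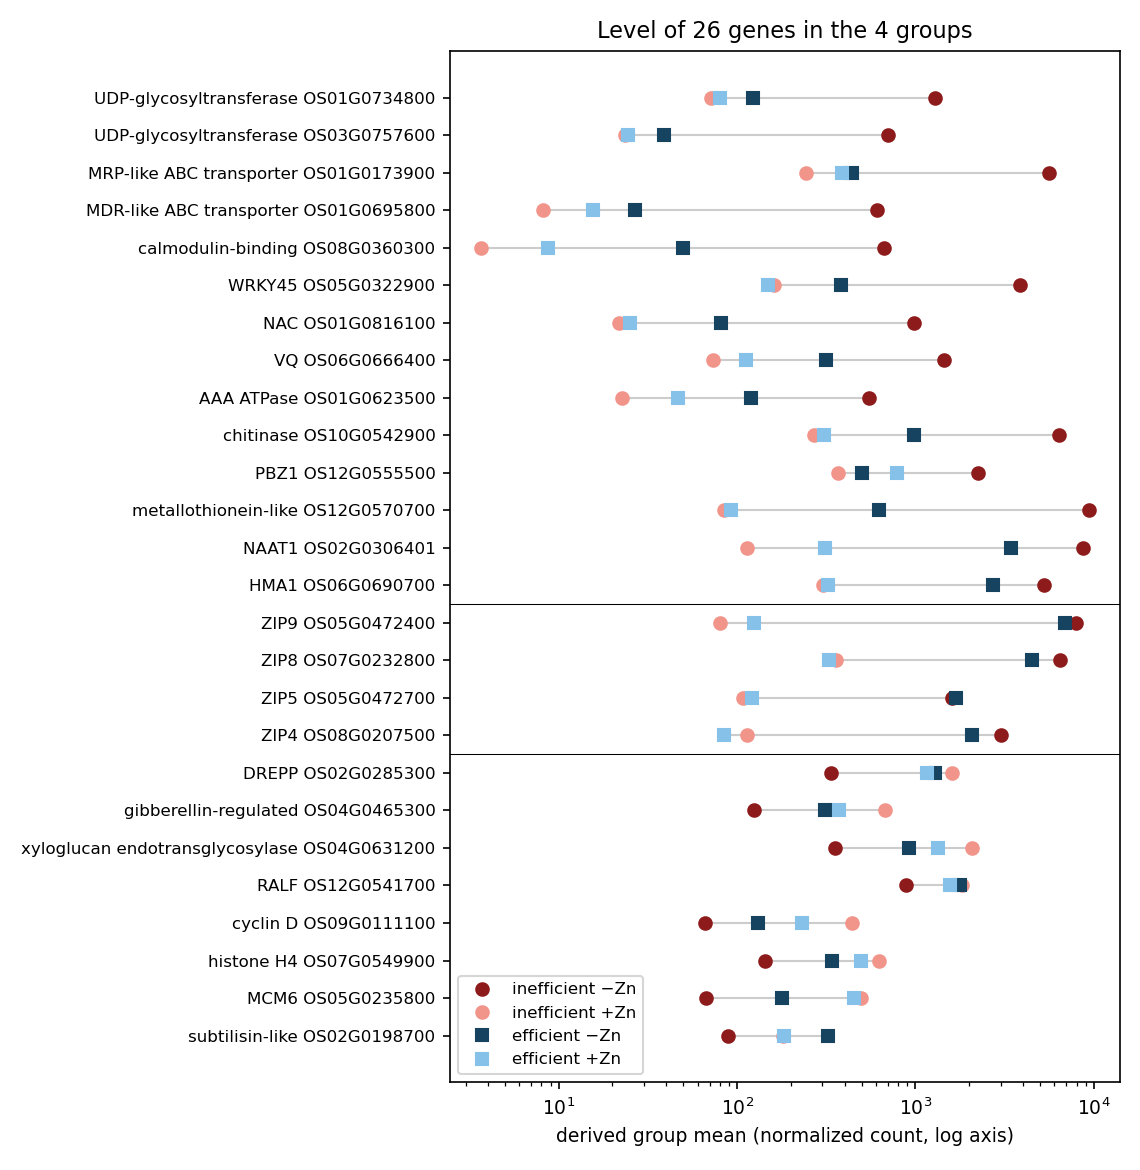
Derived group means (normalized counts, log axis) of the same 26 genes in the 4 groups: dark circles −Zn inefficient, light circles +Zn inefficient, dark squares −Zn efficient, light squares +Zn efficient. At the UDP-glycosyltransferases and ABC transporters 3 groups lie closer to one another than to the −Zn inefficient crowns. At the ZIP genes the −Zn groups of both classes lie together.

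Many of the lower genes named here act in growth, in the cell wall or in cell division. The naming rule favours this, since it took called members from lists of such genes. The share of such functions among all lower genes was not counted. DREPP (OS02G0285300) had the largest ratio of difference to standard error among the lower genes named here. It is a plasma membrane polypeptide of a family that binds calcium and microtubules. It stood at 335 in −Zn inefficient, 1592 in +Zn inefficient, 1284 in −Zn efficient and 1163 in +Zn efficient crowns, so it was lowest in −Zn inefficient crowns (difference −2.39 ± 0.34, adjusted p = 4.89e-09). A gibberellin-regulated gene (OS04G0465300) stood at 125 in −Zn inefficient, 673 in +Zn inefficient, 309.5 in −Zn efficient and 373 in +Zn efficient crowns (difference −2.16 ± 0.38), the only called member of 21 tested (median −0.64). The RALF-type peptide gene OS12G0541700, of a family that makes the apoplast alkaline and checks cell expansion, stood at 879 in −Zn inefficient, 1815 in +Zn inefficient, 1776 in −Zn efficient and 1562 in +Zn efficient crowns (difference −1.23 ± 0.26).

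Lists of wall genes had negative medians while few of their members passed the test. Over all tested genes 11711 of 24127 had a negative difference, which belongs beside the counts here and in the next paragraph. Of the 48 tested expansins and xyloglucan enzymes, which loosen the wall for growth, 42 had a negative difference, the median was −0.92, 2 were lower and 1 was higher. The xyloglucan endotransglycosylase OS04G0631200 stood at 356 in −Zn inefficient, 2086 in +Zn inefficient, 916 in −Zn efficient and 1338 in +Zn efficient crowns (difference −2.005 ± 0.42), and expansin-B12-like OS03G0645000 was lower, with a difference of −1.76 ± 0.48. The higher one was expansin-like A OS03G0132200 (1.70 ± 0.47). Of 67 pectin genes 52 had a negative difference, the median was −0.47 and 2 were lower, among them the pectin lyase fold gene OS01G0743200 (−2.12 ± 0.54). Beside these, the 3 root marker genes had a median difference of −0.91, and the part of root tissue in the harvested crowns in these values was not tested. The X8-domain gene OS10G0347000, the beta-galactosidase OS01G0875500 and the phi-1-like OS02G0757100 were lower, with differences of −2.46 ± 0.59, −0.90 ± 0.20 and −2.32 ± 0.51. Patellin-5-like OS06G0671800, of a family of lipid-binding proteins that act at the forming cell plate in Arabidopsis, had a difference of −2.45 ± 0.59, and the serine carboxypeptidase OS04G0396800 one of −2.28 ± 0.47.

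The machinery of division showed the same contrast of list and member. Among the 42 tested histone genes 38 had a negative difference, the median was −1.08 and 3 were lower. Histone H4 (OS07G0549900) stood at 142 in −Zn inefficient, 628 in +Zn inefficient, 342 in −Zn efficient and 494 in +Zn efficient crowns (difference −1.61 ± 0.43), and a second H4 gene (OS01G0835900) and an H2A gene (OS12G0438000) had differences of −0.99 and −1.11 on the log2 scale. Counts of near-identical histone genes may share reads, so single members are uncertain. Of 34 DNA replication genes 29 had a negative difference, the median was −0.77 (−0.21 scaled) and 1 was lower (2.94%, against 0.783% of all tested genes). It was MCM6 (OS05G0235800), a subunit of the replicative helicase, at 67.3 in −Zn inefficient, 495 in +Zn inefficient, 178 in −Zn efficient and 450.3 in +Zn efficient crowns (difference −1.54 ± 0.46). Of 118 cyclin, kinesin and mitosis genes 86 had a negative difference, the median was −0.43 and 3 were lower. These were the D-type cyclin OS09G0111100 (−1.92 ± 0.47), at 65.7 in −Zn inefficient, 439 in +Zn inefficient, 132 in −Zn efficient and 232 in +Zn efficient crowns, and the kinesins OS03G0114000 (−1.99 ± 0.56) and OS03G0773600 (−0.85 ± 0.26).

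Of 136 auxin genes 3 were lower (2.21%, against 0.783% of all tested genes) and 0 higher (median −0.19). At an unadjusted p under 0.05 the auxin share was 12.5%, near the 11.6% of all tested genes. The 3 lower genes were the ABCB transporter OS04G0459000 (−1.78 ± 0.46) and the AUX/IAA genes OS02G0817600 (−0.91 ± 0.26) and OS12G0601300 (−0.77 ± 0.23). The IQ calmodulin-binding genes OS04G0569900 and OS05G0535900 were lower, with differences of −0.72 ± 0.15 and −0.81 ± 0.17, small differences with small standard errors. Ribosomal protein genes gave 1 lower of 314 (median −0.08, turning to 0.15 scaled), and the 40 photosystem and chlorophyll genes, the 18 aquaporins and the 13 Zn transporters gave 0 calls in either direction. Other lower genes with large ratios or sizes were the resistance protein-like OS01G0769700 (−1.23), the G1-like OS02G0623400 (−0.96), the retinaldehyde-binding-domain gene OS08G0497300 (−1.01), the pollen Ole e I-type OS10G0371000 (−0.81) and the ankyrin gene OS01G0829100 (−1.38). A protein phosphatase 2C gene (OS09G0557900) and a gene for the transcription factor HBP-1b (OS06G0265400) were lower, with differences of −2.98 ± 0.84 and −2.62 ± 0.69. The ribosomal-list gene was OS04G0608100 (−0.93 ± 0.27), named for a ribosomal protein S5-type fold. For the 3 families with 0 calls, at an unadjusted p under 0.05 the count was 1 of 40, 3 of 18 and 0 of 13, against 11.6% of all tested genes.

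**Figure D5:**
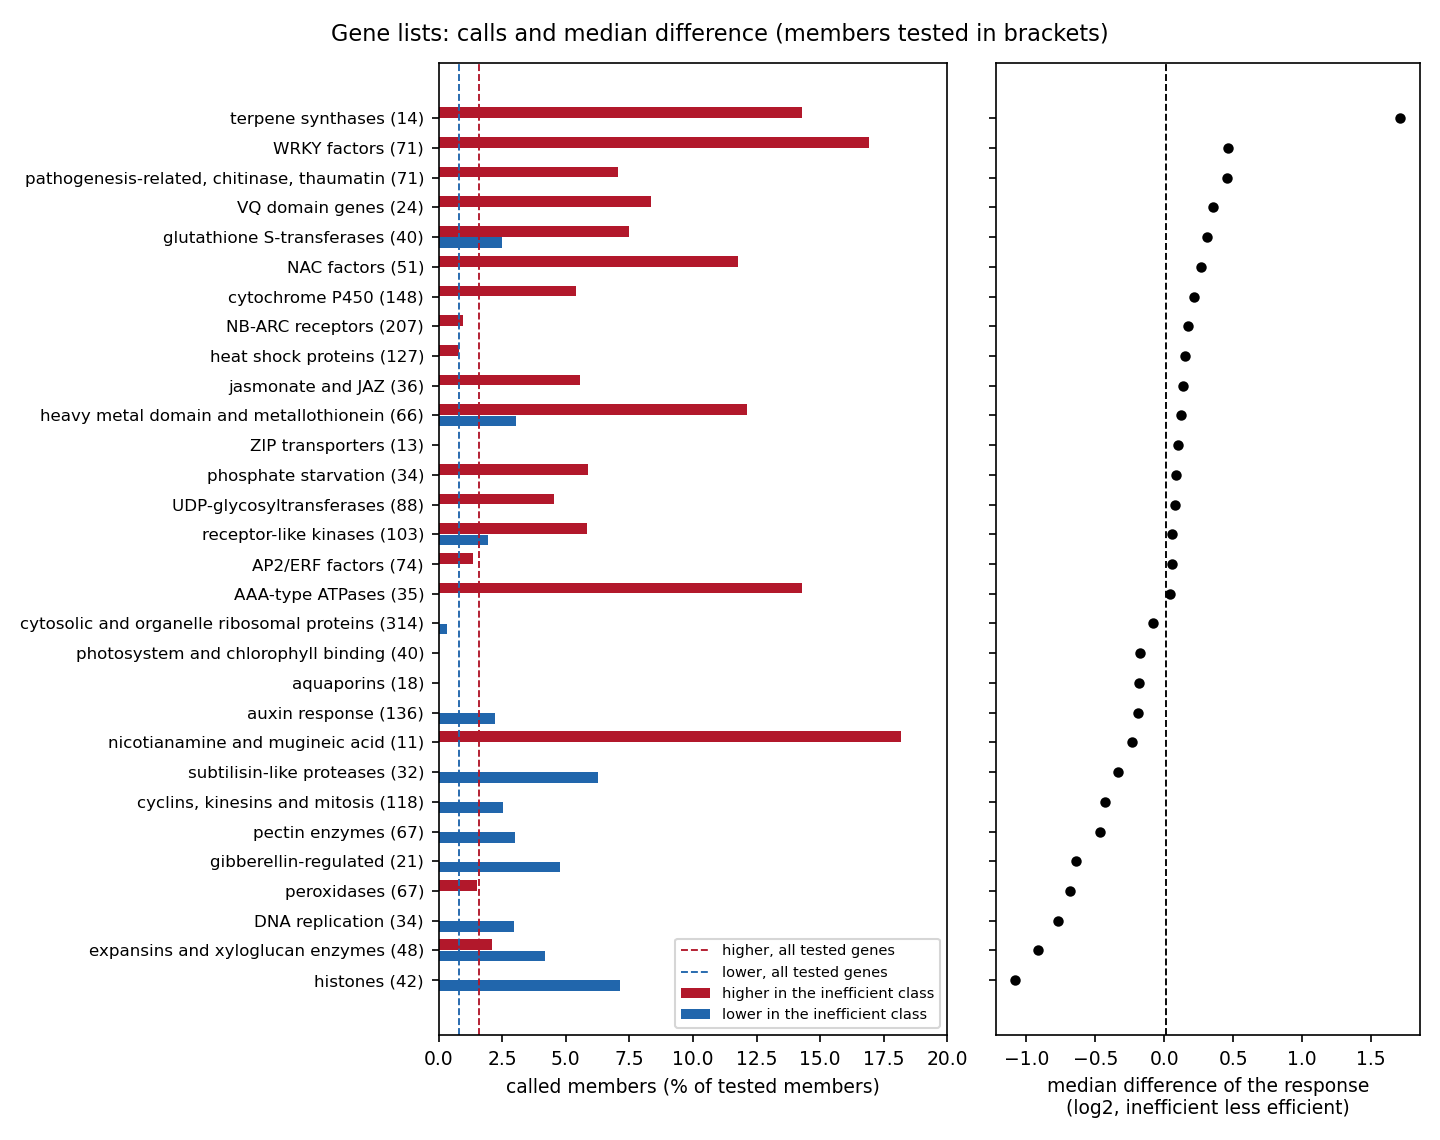
Left, members of each gene list called higher (red) or lower (blue) in the inefficient class as a percentage of its tested members (number in brackets), with the percentages over all tested genes dashed; right, the median difference of the response, with that over all tested genes dashed. The terpene synthase list, which also holds an ent-kaurene oxidase, WRKY factors, the pathogenesis-related list and VQ genes have the largest medians. Histones, expansins and xyloglucan enzymes, DNA replication and peroxidases (−0.68) have the lowest, with few called members. UDP-glycosyltransferases (0.08) and receptor-like kinases (0.06) lie in the middle. Of the NB-ARC receptors 0.966% were higher, below the share of all tested genes.

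At a few called genes the responses of the classes had opposite signs, each at least 2 standard errors from 0. The subtilisin-like protease OS02G0198700 stood at 88.7 in −Zn inefficient, 181 in +Zn inefficient, 324 in −Zn efficient and 182 in +Zn efficient crowns: the classes were level with Zn and parted without it (difference −1.86 ± 0.38, adjusted p = 0.000257). A second subtilisin gene (OS10G0524600) stood at 703 in −Zn inefficient, 1110.2 in +Zn inefficient, 1779 in −Zn efficient and 1222 in +Zn efficient crowns, an extensin-like leucine-rich repeat gene (OS01G0594300) differed by −1.58 ± 0.46, and the actin gene OS11G0163100 by −0.45 ± 0.12. A phosphatidylinositol transfer protein-like gene (OS05G0429400) and a methyladenine glycosylase gene (OS01G0799500) differed by −0.77 and −1.28. In the other direction were a mercaptopyruvate sulfurtransferase-like gene (OS02G0167100) and a gene of eicosanoid and glutathione metabolism (OS03G0709000), higher by 0.76 ± 0.18 and 1.57 ± 0.41. None of these was called beyond 2-fold in either class by the authors' test, in their deposited tables.

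A larger response in the efficient class was rare among the called genes, which were chosen by the difference: 6 of the 381 higher and 1 of the 189 lower genes had it. An inositol trisphosphate kinase gene (OS10G0103800) stood at 195 in −Zn inefficient, 262 in +Zn inefficient, 118 in −Zn efficient and 354 in +Zn efficient crowns, so +Zn efficient crowns were highest and −Zn efficient crowns lowest (difference 1.16 ± 0.31). The calmodulin gene OS03G0319300 was the 1 lower gene, at 2430.0 in −Zn inefficient, 2382 in +Zn inefficient, 2832 in −Zn efficient and 2106 in +Zn efficient crowns (difference −0.40 ± 0.12). The Hsp90 ATPase activator gene OS02G0139100 differed by 0.65 ± 0.20. A called rise in the efficient class and not in the inefficient one was listed for 7 genes in the authors' deposited tables, and the difference was called at 0 of the 7 (2 of the 7 at an unadjusted p under 0.05).

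The authors' deposited tables called a rise in both classes at 57 genes. The difference was called at 5 of the 57, all higher: NAAT1, HMA1, an F-box gene (OS06G0166000, 0.99 ± 0.23), a short-chain dehydrogenase gene (OS07G0664900, 1.34 ± 0.38) and OS02G0166600 (1.57 ± 0.32), the last 3 named after their values were seen. With the efficient responses scaled, none of the 5 was called, and the differences of the F-box and dehydrogenase genes turned to −1.002 and −0.07. The median difference of the 57 was 0.60, and 46 were positive. For 5 of the 57 the 95% interval lay within 1 log2 unit of 0 on both sides. Of the 8 genes with a called fall in both classes, by the same tables, 0 had a called difference (0 of the 8 at an unadjusted p under 0.05, median −0.10).

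The called genes were spread over all 12 chromosomes, with the higher genes making up 1.16% to 1.97% and the lower genes 0.304% to 1.13% of the tested genes of a chromosome. Neighbours were called in the same direction in 26 runs, 25 of them pairs and 1 of 3 genes. How many runs the shares of called genes would give without any grouping was not worked out. Pairs included the WRKY76 and WRKY62 genes, the MRP-like transporters OS04G0209200 and OS04G0209300, and the heavy metal domain genes OS02G0584700 and OS02G0584800. Similar neighbouring genes may share reads, so the members of such a pair are not independent measurements.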

How the data were processed

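RNA of rice crowns was sequenced in 12 libraries (Illumina, paired-end). Per the submitters' processing notes the tools were Trimmomatic 0.36, FastQC 0.11.5, HISAT2 2.0.4, Subread 1.5.0-p3 with featureCounts, and DESeq2 1.12.3, on the genome build IRGSP-1.0. The counting settings, strand included, are not given in the sources used here. Of 6 deposited tables the 4 that compare single groups were used. Per the file headers each gives, by gene, the mean normalized count over all libraries (a signal the authors made by dividing counts by size factors), the log2 fold change and its standard error, a test score, and p-values raw and adjusted. The deposited score equals the distance of the fold change from 1 log2 unit over its standard error, so the authors' p-values test a change beyond 2-fold. Gene symbols beyond the deposited descriptions are common names of the loci.

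The difference of the 2 deposited log2 responses was divided by the root of the summed squared standard errors. The 2 tables share no library. A two-sided normal p was adjusted (Benjamini-Hochberg) over the 24127 genes with a deposited adjusted p in both tables, the others having too low a mean, an outlying count or no test. This took the place of an interaction term in the authors' DESeq2 model, and it treats the standard errors as known. The deposited contrasts failed to close within 0.01 log2 units at 47 tested and 0 called genes. Replicates are different genotypes, so the spread of levels between these genotypes enters the standard errors. No values of single libraries were at hand to pair the −Zn and +Zn crowns of a genotype. The p-values therefore do not measure how the Zn response itself varied between genotypes.

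Genes named in the text were called, had an informative description and averaged 20 normalized counts or more: the 15 largest ratios to the standard error and the 6 largest differences with a mean of 100 or more in each direction, up to 6 with opposite signs, up to 6 larger in the efficient class, up to 4 per list, and 9 genes named whatever their values. Other genes are said to have been picked after their values were seen. The members and lists were chosen with earlier results of these data known, and list matches on wrong descriptions were removed after descriptions and values were seen. The work was done in Python 3.11.15 with scipy 1.17.1 for p-values, numpy 2.4.6, pandas 2.3.3 and, for plots, matplotlib 3.10.9. The lists and the alternatives are described in the closing section.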

Additional observations from a re-analysis of the deposited data

Results flagged for a closer look

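The test of the difference itself was passed at 381 genes with a higher and 189 with a lower response in the inefficient class. The values below are the differences of the Zn response, inefficient less efficient, on the log2 scale, for each such gene named in the text, ordered by size within a group of functions.

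In conjugation and oxidation (UDP-glycosyltransferases, cytochromes P450, glutathione S-transferases) the higher genes were OS01G0627800 (12.89), OS04G0206500 (9.58), OS08G0508000 (6.66), OS05G0527000 (4.67), OS03G0757600 (4.22), OS01G0734800 (3.55), OS10G0529500 (2.72), OS12G0268000 (2.54), OS01G0949750 (2.16), OS09G0441400 (2.04) and OS04G0435500 (1.05). For export and transport the higher genes were OS01G0695800 (5.44), OS01G0173900 (4.33), OS04G0209200 (3.05), OS04G0373400 (2.83), OS03G0203700 (2.51), OS07G0191200 (1.89), OS04G0209300 (1.44) and OS03G0150600 (1.43). Among genes of metal handling and phosphate regulation the higher ones were OS12G0570700 (4.05), OS02G0584800 (3.45), OS02G0584700 (3.05), OS02G0306401 (2.78), OS03G0237100 (2.27), OS12G0105600 (1.95), OS06G0690700 (1.04) and OS08G0205400 (0.67). In transcription factors and their partners the higher genes were OS03G0335200 (5.15), OS09G0417600 (4.86), OS09G0417800 (4.73), OS01G0816100 (3.79), OS05G0322900 (3.24), OS11G0154500 (3.09), OS06G0666400 (2.81), OS01G0730700 (2.47), OS01G0246700 (1.67), OS01G0261200 (1.60), OS01G0884300 (1.53), OS01G0693400 (1.43), OS10G0392400 (1.37), OS02G0173200 (1.21) and OS07G0615200 (0.72). For calcium binding, receptors and immune receptors the higher genes were OS08G0360300 (5.001), OS07G0129900 (4.35), OS09G0471800 (2.71), OS11G0607200 (1.75), OS11G0266500 (1.67), OS04G0531400 (1.41) and OS05G0414200 (0.83). Among genes of defence products and indole, phenylpropanoid and terpenoid enzymes the higher ones were OS03G0195100 (4.77), OS06G0569500 (4.19), OS02G0570400 (3.70), OS12G0555200 (3.47), OS12G0555500 (3.26), OS04G0518400 (3.22), OS10G0542900 (2.89), OS01G0962700 (1.78), OS08G0140500 (1.73), OS10G0416500 (1.72), OS07G0182100 (1.63), OS04G0463500 (1.60), OS03G0264400 (1.198) and OS01G0764400 (0.82). In other functions the higher genes were OS04G0627900 (8.57), OS03G0790500 (6.25), OS09G0444900 (6.24), OS05G0366600 (4.37), OS01G0623500 (3.24), OS03G0802500 (3.10), OS07G0192000 (2.49), OS03G0584400 (2.32), OS01G0778800 (1.95), OS03G0132200 (1.70), OS02G0166600 (1.57), OS03G0709000 (1.57), OS07G0664900 (1.34), OS10G0103800 (1.16), OS06G0166000 (0.99), OS02G0167100 (0.76) and OS02G0139100 (0.65).

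In growth signals and the cell wall the lower genes were OS10G0347000 (−2.46), OS06G0671800 (−2.45), OS02G0285300 (−2.39), OS02G0757100 (−2.32), OS04G0396800 (−2.28), OS04G0465300 (−2.16), OS01G0743200 (−2.12), OS04G0413500 (−2.09), OS04G0631200 (−2.005), OS03G0645000 (−1.76), OS04G0574200 (−1.65), OS12G0541700 (−1.23) and OS01G0875500 (−0.90). For division, chromatin and the cytoskeleton the lower genes were OS03G0114000 (−1.99), OS09G0111100 (−1.92), OS07G0549900 (−1.61), OS05G0235800 (−1.54), OS01G0805900 (−1.29), OS12G0438000 (−1.11), OS01G0835900 (−0.99), OS03G0773600 (−0.85), OS03G0726100 (−0.84) and OS11G0163100 (−0.45). Among genes of auxin and calmodulin the lower ones were OS04G0459000 (−1.78), OS02G0817600 (−0.91), OS05G0535900 (−0.81), OS12G0601300 (−0.77), OS04G0569900 (−0.72) and OS03G0319300 (−0.40). In other functions the lower genes were OS09G0557900 (−2.98), OS06G0265400 (−2.62), OS01G0371500 (−2.34), OS02G0198700 (−1.86), OS01G0594300 (−1.58), OS01G0829100 (−1.38), OS01G0799500 (−1.28), OS01G0769700 (−1.23), OS10G0524600 (−1.20), OS01G0719600 (−1.13), OS08G0497300 (−1.01), OS02G0623400 (−0.96), OS04G0608100 (−0.93), OS10G0371000 (−0.81) and OS05G0429400 (−0.77).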

How the results depend on the processing

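The counts of 381 higher and 189 lower genes were within 1.5 times of the main value without a filter on low counts, at a mean of at least 20, with widened standard errors, after centring, through the class contrasts, with closing contrasts only and, as an alternative added after seeing the data, with derived means with Zn of at least 5. Several of these settings could hardly move the counts. The widening factor was 1.0002, the centring shift was 0.02, and 0 called genes failed to close. Through the class contrasts the same 570 genes were called, since the difference is the same quantity by either route. The counts moved to 206 and 58 at an adjusted p under 0.01, and to 165 and 38 with the Benjamini-Yekutieli adjustment. They moved to 37 and 1 for a difference beyond 2-fold, and to 36 and 20 with the efficient responses scaled by 1.59. Under that scaling the difference reversed to −2.61 at ZIP4 (adjusted p = 0.000678), −2.14 at ZIP5, −1.87 at ZIP8, −2.58 at ZIP9, −0.77 at HMA1, −1.002 at OS06G0166000 and −0.0664 at OS07G0664900, which follows from its construction, since genes with a steep response in both classes have the efficient one enlarged. No paired analysis was possible because the deposited tables hold no values of single libraries, and for the same reason no library could be left out and the weight of 1 genotype in a class was not tested. Precision was set by 3 genotypes in each group, and the read depth is unknown here. The band of 0.5 for the forms was replaced by 0.25 and 1 after seeing the data: the higher genes with an efficient response inside it numbered 76 and 277, the lower genes 58 and 184, so the most frequent form of the higher genes turned at the band of 1 and that of the lower genes at 0.25 (107 of the same sign). The promoter motifs were not run for want of promoter sequences.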

Other observations

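Some further groups of genes stood out among the 570 called genes. They were put together after the values had been seen, by words in the product descriptions, so their counts are descriptions and carry no test. Among 19 tested genes for chorismate, anthranilate and tryptophan enzymes, which lead from the shikimate pathway to indole compounds, 5 were higher and 0 lower, with a median difference of 0.66 (1.58% and 0.783% of all tested genes were higher and lower, median 0.02). They were the alpha chain of tryptophan synthase (OS07G0182100, 1.63 ± 0.26), the alpha and beta subunits of anthranilate synthase (OS03G0264400, 1.198 ± 0.25, and OS04G0463500, 1.60 ± 0.38), tryptophan decarboxylase (OS08G0140500, 1.73 ± 0.49), which makes tryptamine, and chorismate mutase (OS01G0764400, 0.82 ± 0.21). Tryptophan synthase stood at 1394 in −Zn inefficient, 420.4 in +Zn inefficient, 556 in −Zn efficient and 521 in +Zn efficient crowns. The phenylalanine ammonia-lyase gene OS04G0518400, which opens the phenylpropanoid pathway, stood at 1072 in −Zn inefficient, 28.6 in +Zn inefficient, 96.7 in −Zn efficient and 24.0 in +Zn efficient crowns and was higher by 3.22 ± 0.69.

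Of 217 tested calcium and calmodulin genes 10 were higher and 4 lower (median 0.14, turning to −0.01 with the efficient responses scaled). The plasma membrane calcium-pumping ATPase OS03G0203700 stood at 1175 in −Zn inefficient, 103 in +Zn inefficient, 249 in −Zn efficient and 124 in +Zn efficient crowns (difference 2.51 ± 0.40), and the plasma membrane proton pump OS07G0191200 was higher by 1.89 ± 0.34. Of 250 RING and U-box genes, many of them for ubiquitin ligases, 11 were higher and 2 lower (median 0.16). Of 47 multidrug, MRP and MATE exporter genes 8 were higher and 1 lower (median 0.15, turning to −0.06 scaled).

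The cytoskeleton and wall surface gave lower genes only. Of 89 tested tubulin, actin and myosin genes and their partners 8 were lower and 0 higher (median −0.22), with the beta-tubulin OS01G0805900 at 894 in −Zn inefficient, 3296 in +Zn inefficient, 1851 in −Zn efficient and 2787 in +Zn efficient crowns (difference −1.29 ± 0.34) and the alpha-tubulin OS03G0726100 also lower (−0.84 ± 0.25). Of 45 FAS1, X8 and family 17 glycoside hydrolase genes, whose products lie in the wall or at the cell surface, 7 were lower and 0 higher. Of the 45, 37 had a negative difference, against 11711 of all 24127 tested genes, and the median was −0.58. Of these 45 the FAS1 gene OS04G0574200 stood at 218 in −Zn inefficient, 1246 in +Zn inefficient, 439 in −Zn efficient and 800.1 in +Zn efficient crowns (difference −1.65 ± 0.41). A cell-wall invertase gene (OS04G0413500), whose enzyme splits sucrose in the apoplast, stood at 42.7 in −Zn inefficient, 448 in +Zn inefficient, 101 in −Zn efficient and 248 in +Zn efficient crowns (difference −2.09 ± 0.59).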
